A study of Mus musculus with 12 samples.

Results

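The Hoxc cluster is a row of homeobox genes on mouse chromosome 15 that encode transcription factors of the HOX family. The table of gene values from cultured mouse colon fibroblasts held 23106 genes, and the 9 rows whose Ensembl identifier belongs to Hoxc4, Hoxc5, Hoxc6, Hoxc8, Hoxc9, Hoxc10, Hoxc11, Hoxc12 or Hoxc13 were taken, which is every one of the 9 named members. The cluster was selected on the levels of its genes in all 3 groups of these libraries, so those levels and their changes are given as a description, with no test. The filter for low values, a mean of 10 over the 12 libraries, was passed by 8 of the 9, and Hoxc12 fell under it with a mean of 4.23.

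Transcripts were counted by QuantSeq, which primes at the poly(A) tail and so reads 1 tag from the 3' end of each captured transcript. There were 3 groups of 4 libraries: C57BL/6 fibroblasts labelled Prkcz-/- with a guide named sgSox2 (Sox2-guide libraries), the same labelled genotype with a guide named sgScr (knockout-labelled libraries), and cells labelled WT with sgScr (WT-labelled libraries). All came from the colon of animals 12 weeks old, carried a guide, received no treatment, and were harvested 24 h after plating at about 80% confluency. Prkcz encodes protein kinase C zeta. Sox2 encodes a SOX-family transcription factor best known from pluripotent cells and neural progenitors. The title and labels put the question as what differs with loss of Prkcz in fibroblasts, and how much of it depends on Sox2. Whether a group was 1 line or clone, which cells the guides were delivered to, and whether the replicates, which the series calls biological, were separate animals or cultures are not given, so a p-value measures the spread between these libraries, which may be technical.

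Levels are in normalised reads, meaning a gene's reads scaled to a library total of 10000000. Libraries held 2.67 to 5.20 M reads, so 1 read was worth 1.92 to 3.75 normalised reads. A 3'-tag library yields tags irrespective of transcript length, so levels of different genes are set side by side as tags without division by length. Sox2-guide replicate 1 stood apart: a chi-square of reads over genes was 27.2 to 30.7 per degree of freedom against the other 3 replicates of its group, which differed among themselves by 2.38 to 5.27, while pairs within the other groups had 1.27 to 4.71. Sox2 had 0 reads in the Sox2-guide libraries, 1293 to 1459 normalised reads in the knockout-labelled libraries and 2 reads in the WT-labelled libraries. Prkcz had 30.8, 28.9, 52.5 and 27.2 normalised reads in the Sox2-guide libraries, 26.4, 23.3, 9.39 and 25.9 in the knockout-labelled libraries and 0 in all 4 WT-labelled libraries. These Prkcz values go against the labels. The deleted part is not given, and a 3' tag outside it would leave reads in Prkcz-/- cells. That does not bear on the 0 reads in the WT-labelled libraries, the reason for which was not tested. Every direction drawn from the genotypes thus holds for libraries as labelled. Fibroblast markers summed to 61184 to 66837, 138773 to 140418 and 56262 to 60187 normalised reads in the Sox2-guide, knockout-labelled and WT-labelled libraries. All 10 markers were listed above 0 in the knockout-labelled and WT-labelled groups, and Lum, lumican, was at 0 in the Sox2-guide libraries. The sums came mostly from Col1a1, Fn1, Vim and Col1a2, while Dcn, decorin, averaged 31.5, 55.3 and 1374 and Thy1, a surface glycoprotein, 0.481, 146 and 942 in the same order, both highest in the WT-labelled libraries.

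HOX proteins specify position along the body axis in the embryo, and genes of one cluster lie on the chromosome in the order in which their expression domains follow each other from head to tail. Low-numbered genes act towards the head and high-numbered genes towards the tail. Polycomb complexes hold clusters silent and Trithorax proteins hold them active, and retinoic acid opens them early in development. Fibroblasts of adult tissues keep a pattern of active HOX genes that reflects where in the body they came from, and the hindgut is known for genes of paralog group 13 in the Hoxa and Hoxd clusters.

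The 9 genes lie on the plus strand of chr15:102921103-103036852 (GRCm38, GENCODE vM21 annotation), a stretch of 116 kb that opens with Hoxc13 and ends with Hoxc4. In chromosomal order they are Hoxc13 (ENSMUSG00000001655, chr15:102921103-102928814), Hoxc12 (ENSMUSG00000050328, chr15:102936757-102938609), Hoxc11 (ENSMUSG00000001656, chr15:102954427-102957708), Hoxc10 (ENSMUSG00000022484, chr15:102966796-102971893), Hoxc9 (ENSMUSG00000036139, chr15:102976439-102985099), Hoxc8 (ENSMUSG00000001657, chr15:102990607-102994111), Hoxc6 (ENSMUSG00000001661, chr15:102998257-103011881), Hoxc5 (ENSMUSG00000022485, chr15:102967443-103017429) and Hoxc4 (ENSMUSG00000075394, chr15:103018934-103036852). Hoxc6, Hoxc8 and Hoxc9 lie inside the span annotated for Hoxc5, 1 of whose transcripts starts in an exon of Hoxc10. That is the only exon overlap among the 9 genes. The last 500 bases of the first listed transcript of each gene, where its 3' tags would fall, overlapped no exon of another gene on either strand. In each of these windows, 0 of 451 stretches of 50 bases occurred in a transcript of another gene. For Hoxc8 that transcript ends at chr15:102993821, short of the end of the gene at 102994111, and the bases between were not examined. How the authors' counting assigned reads among overlapping genes is not given, so the values of Hoxc5, Hoxc6, Hoxc8, Hoxc9 and Hoxc10 are uncertain as far as it could share reads.

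All 9 carry a homeobox, the coding stretch of 180 bases for the DNA-binding homeodomain. The 60 bases around its recognition helix are shown for 8 of them, since they are the part the members share; capitals mark the 18 bases of the helix core (GENCODE vM21 transcripts, GRCm38, plus strand).
Hoxc13: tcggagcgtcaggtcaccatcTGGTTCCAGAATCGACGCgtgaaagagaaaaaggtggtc
Hoxc12: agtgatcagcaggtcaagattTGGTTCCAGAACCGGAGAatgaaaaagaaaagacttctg
Hoxc11: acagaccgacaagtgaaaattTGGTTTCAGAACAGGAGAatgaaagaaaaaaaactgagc
Hoxc10: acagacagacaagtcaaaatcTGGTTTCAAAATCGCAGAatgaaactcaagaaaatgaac
Hoxc9: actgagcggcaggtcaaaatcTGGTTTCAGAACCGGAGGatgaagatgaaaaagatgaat
Hoxc8: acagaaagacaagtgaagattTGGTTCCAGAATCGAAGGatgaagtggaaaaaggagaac
Hoxc6: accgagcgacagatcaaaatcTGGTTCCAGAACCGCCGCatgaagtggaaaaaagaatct
Hoxc4: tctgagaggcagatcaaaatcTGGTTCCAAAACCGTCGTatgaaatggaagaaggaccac

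In the knockout-labelled libraries the whole cluster was read, with the middle of the cluster highest. In the Sox2-guide libraries Hoxc13, at one end, made up the greater part of what remained. Hoxc9 and Hoxc6 were read there at 13.4 to 40.4 and 9.61 to 22.3 normalised reads, and each of the other 6 genes had 8 reads or fewer over the 4 libraries. In the WT-labelled libraries Hoxc6 and Hoxc9 were the only members with any read. The sum over the 9 genes was 214 ± 16.5 normalised reads in the Sox2-guide libraries (353 reads), 6559 ± 248 in the knockout-labelled libraries (9605 reads) and 27.4 ± 8.71 in the WT-labelled libraries (34 reads; SD, n = 4 each). These are bulk cultures, in which fewer cells of a type and less RNA per cell cannot be told apart.

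**Figure D1:**
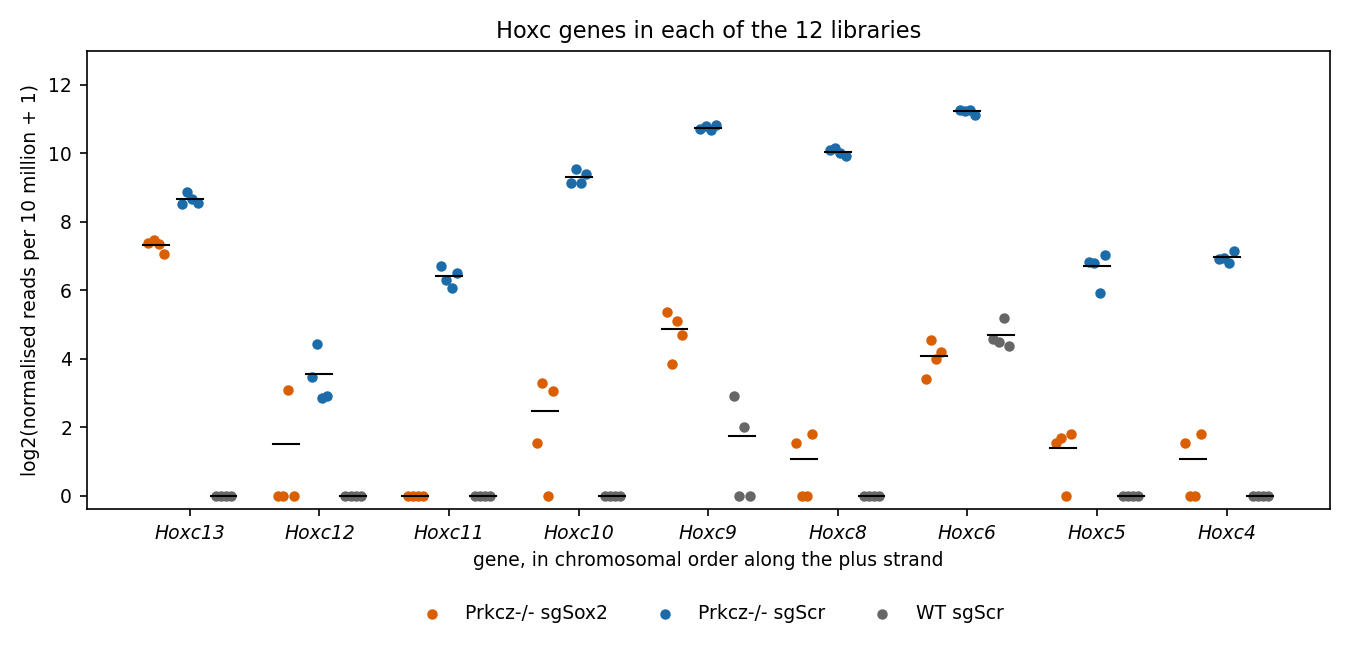
Level of each Hoxc gene in each of the 12 libraries, as log2(normalised reads + 1) on the y axis, with genes in chromosomal order on the x axis. Each point is a library and each bar the log2 of the group mean plus 1. Knockout-labelled libraries (Prkcz-/- sgScr) are highest for every gene, and Hoxc13 is the gene with the highest level in Sox2-guide libraries (Prkcz-/- sgSox2).

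The members are taken first at the low-numbered end. Hoxc4 and Hoxc5 act in the embryonic neck and upper trunk. Hoxc4 had 1.92, 0, 0 and 2.47 normalised reads in the Sox2-guide libraries (2 reads), 120, 122, 110 and 142 in the knockout-labelled libraries (180 reads) and 0 in the WT-labelled libraries. Hoxc5 had 1.92, 2.23, 0 and 2.47 in the Sox2-guide libraries (3 reads), 112, 111, 59.5 and 129 in the knockout-labelled libraries (152 reads) and 0 in the WT-labelled libraries. Every knockout-labelled library was above every other library for both genes, and the other groups were at or within 1 read of 0. Relative to the WT-labelled libraries, Hoxc4 was at least 50.2-fold higher and Hoxc5 at least 42.4-fold higher in the knockout-labelled libraries, taking 3 reads over the group as the upper limit that a count of 0 allows. The Sox2-guide to knockout-labelled ratio of reads was 0.00991 for Hoxc4 (95% exact counting interval 0.00119 to 0.0363) and 0.0176 for Hoxc5 (0.00359 to 0.0524). Intervals and limits cover counting error only.

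Hoxc6 patterns the thorax and the mammary gland in mice. It had 9.61, 22.3, 15.0 and 17.3 normalised reads in the Sox2-guide libraries (26 reads), 2484, 2438, 2469 and 2219.9 in the knockout-labelled libraries (3533 reads) and 22.7, 21.7, 35.9 and 19.7 in the WT-labelled libraries (31 reads). It was the most abundant member in the knockout-labelled libraries and the only one with reads in all 12 libraries. The knockout-labelled to WT-labelled ratio was 95.3 (67.0 to 140.4), a log2 change of 6.57 ± 0.24 (SE), and the log2 change between Sox2-guide and knockout-labelled libraries was -7.19 ± 0.24. Sox2-guide and WT-labelled values overlapped, with a ratio of 0.625 (0.357 to 1.09).

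Hoxc8 and Hoxc9 pattern the trunk and its motor neurons. Hoxc8 had 1.92, 0, 0 and 2.47 normalised reads in the Sox2-guide libraries (2 reads), 1102, 1140.1, 1023 and 977 in the knockout-labelled libraries (1562 reads) and 0 in the WT-labelled libraries. Hoxc9 had 40.4, 13.4, 33.7 and 24.7 in the Sox2-guide libraries (46 reads), 1673, 1784.5, 1652 and 1809 in the knockout-labelled libraries (2522 reads) and 6.49, 0, 2.99 and 0 in the WT-labelled libraries (3 reads). For Hoxc9 no group overlapped another, with the Sox2-guide libraries between the other groups. Hoxc8 was at least 435-fold higher in knockout-labelled than in WT-labelled libraries, and for Hoxc9 the ratio was 703 (240.2 to 3410.1). Against the knockout-labelled libraries, Hoxc8 was 876-fold lower (242 to 7239) and Hoxc9 61.5-fold lower (46.0 to 84.2) in the Sox2-guide libraries. Against the WT-labelled libraries, Hoxc9 was 11.4-fold higher in the Sox2-guide libraries (3.67 to 57.5), a ratio that rests on 46 and 3 reads.

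Hoxc10 and Hoxc11 act in the lumbar and sacral region and the hindlimb. Hoxc10 had 1.92, 8.90, 0 and 7.41 normalised reads in the Sox2-guide libraries (8 reads), 567, 746, 563 and 679.5 in the knockout-labelled libraries (925 reads) and 0 in the WT-labelled libraries. It was 130-fold lower in the Sox2-guide than in the knockout-labelled libraries (65.5 to 301), and at least 258-fold higher in the knockout-labelled than in the WT-labelled libraries. Hoxc11 had 0 reads in all 4 Sox2-guide libraries, 104, 78.7, 65.7 and 90.6 normalised reads in the knockout-labelled libraries (127 reads) and 0 reads in all 4 WT-labelled libraries. That makes it at least 47.5-fold lower in the Sox2-guide than in the knockout-labelled libraries, and at least 35.4-fold higher in the knockout-labelled than in the WT-labelled libraries. Hoxc12 had 0, 0, 7.49 and 0 normalised reads in the Sox2-guide libraries (2 reads, both in 1 library), 10.2, 20.4, 6.26 and 6.47 in the knockout-labelled libraries (16 reads) and 0 in the WT-labelled libraries. It was the lowest member in the knockout-labelled libraries, and that 1 Sox2-guide library overlapped their range.

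Hoxc13, at the high-numbered end, is known in mice for hair and nail development, where it drives keratin genes. It had 167, 178, 161 and 133 normalised reads in the Sox2-guide libraries (264 reads), 368, 472, 407 and 372 in the knockout-labelled libraries (588 reads) and 0 in all 4 WT-labelled libraries. The 3 groups did not overlap, and the Sox2-guide libraries lay between the other groups. The Sox2-guide to knockout-labelled ratio of reads was 0.400 (0.345 to 0.464), a log2 change of -1.33 ± 0.22 (SE), or -1.36 without Sox2-guide replicate 1. Hoxc13 was at least 164-fold higher in knockout-labelled and at least 65.6-fold higher in Sox2-guide than in WT-labelled libraries. Keratinocyte and hair follicle markers, of which 6 of the 8 listed were analysed, summed to 74.1 to 125, 35.6 to 62.6 and 88.7 to 132 normalised reads in the Sox2-guide, knockout-labelled and WT-labelled libraries. Krt10 carried most of each sum, with means of 83.7, 49.8 and 98.1. Krt14, a basal keratin, had 16 reads in the Sox2-guide libraries and 0 in the other groups, and Foxn1, a hair follicle factor, averaged 10.1, 1.51 and 2.46. The keratins Krt5 and Krt1 and the epidermal factor Trp63 were at 0 in the Sox2-guide libraries.

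The part of the knockout-labelled mean that was still measured in the Sox2-guide libraries thus differed along the cluster. It was 39.5% for Hoxc13 (32.9 to 44.0% over the 4 libraries), 1.62% for Hoxc9, 1.61% for Hoxc5, 0.889% for Hoxc4, 0.713% for Hoxc10, 0.667% for Hoxc6, 0.104% for Hoxc8 and 0 for Hoxc11. For Hoxc12 it averaged 17.3%, all of it from 1 library with 2 reads. Hoxc13 made up 74.5 ± 3.72% of Hoxc reads in the Sox2-guide libraries (70.1 to 79.2%), against 6.16 ± 0.557% in the knockout-labelled libraries (SD, n = 4 each). In the WT-labelled libraries Hoxc6 took 92.5 ± 10.5% and Hoxc9 the rest.

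**Figure D2:**
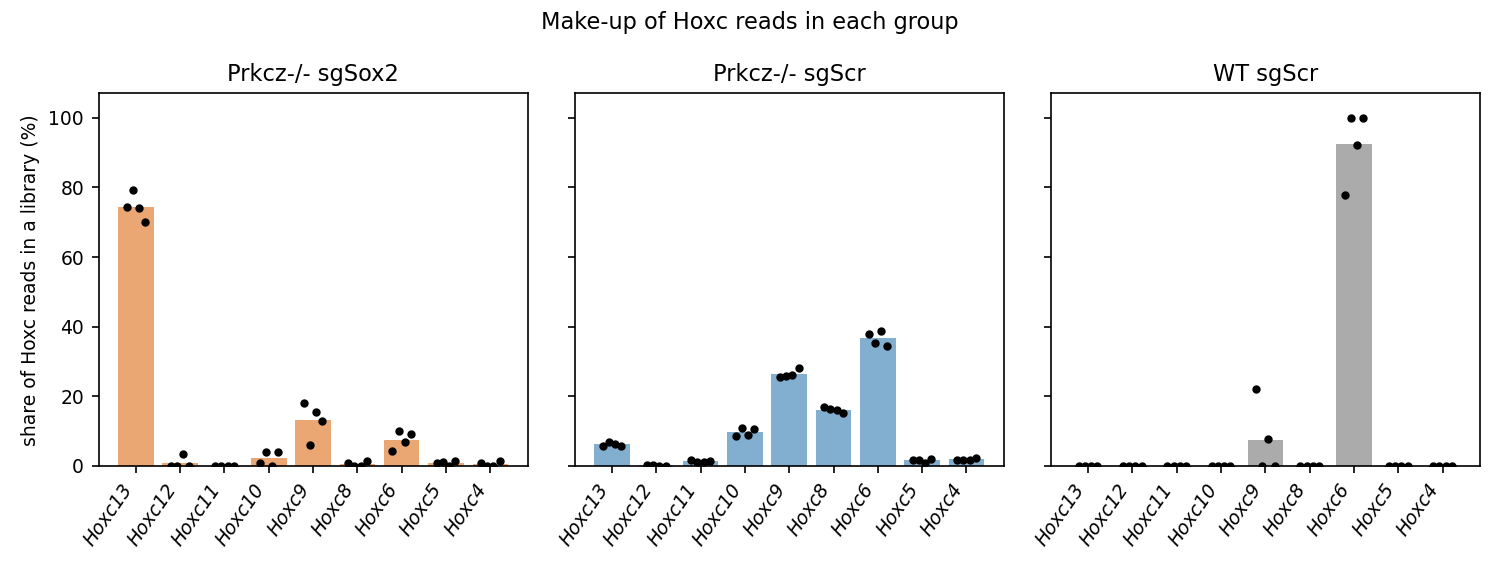
Share of all Hoxc reads of a library (y axis, percent) taken by each gene in chromosomal order (x axis), with bars for group means and points for the 4 libraries of each group. Hoxc13 takes 70.1 to 79.2% in Sox2-guide libraries (Prkcz-/- sgSox2), while Hoxc6, Hoxc9 and Hoxc8 take most in knockout-labelled libraries (Prkcz-/- sgScr) and Hoxc6 in WT-labelled libraries (WT sgScr).

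The order of levels changed with the group. In the Sox2-guide libraries it was Hoxc13, Hoxc9, Hoxc6 and Hoxc10, and the ranges of Hoxc9 and Hoxc6 overlapped. Among the remaining 5 genes, each at 3 reads or fewer, no order could be told. In the knockout-labelled libraries it was Hoxc6, Hoxc9, Hoxc8, Hoxc10, Hoxc13, Hoxc4, Hoxc5, Hoxc11 and Hoxc12. Neighbours in that order had separate ranges, apart from Hoxc4 and Hoxc5 and from Hoxc5 and Hoxc11, which overlapped. The highest 4 genes, Hoxc6 to Hoxc10, are adjacent on the chromosome apart from the extended span of Hoxc5.

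Across all genes, limma with Benjamini-Hochberg adjustment was run on log2(value + 1) for 12676 genes, and an adjusted p under 0.05 was taken as a call. On this scale the change of low genes depends on the added 1. All 8 members tested were called higher in the knockout-labelled than in the WT-labelled libraries, where 67.0% of tested genes were called, 37.6% higher and 29.4% lower. All 8 were called lower in the Sox2-guide than in the knockout-labelled libraries, where 60.7% of tested genes were called, 30.5% higher and 30.2% lower. In Sox2-guide against WT-labelled libraries 52.0% of tested genes were called, 30.1% higher and 22.0% lower. There Hoxc13, Hoxc10 and Hoxc9 were called higher, Hoxc6 lower, and 4 members were not called. The Hoxc10 call rests on 8 reads against 0, with groups that overlapped and a level at least 1.99-fold higher. Hoxc4, Hoxc5, Hoxc8, Hoxc10 and Hoxc11 passed the filter only through the knockout-labelled libraries, so nothing is read from their calls here. The Hoxc6 call ended with edgeR, with DESeq2, without Sox2-guide replicate 1 or 3, without knockout-labelled replicate 1, 2 or 3, without WT-labelled replicate 3, and with a fit of only the 2 groups. The values of 9 of 9 members were higher in every knockout-labelled library than in any WT-labelled library (36.8% of tested genes), and those of 8 of 9, all but Hoxc12, were lower in every Sox2-guide library than in any knockout-labelled library (27.6%). The median log2 change of the 8 tested members was 7.81 in knockout-labelled against WT-labelled libraries, or 6.96 with the 6 genes at 0 set to their bound. In Sox2-guide against knockout-labelled libraries it was -6.26, or -6.06 with 1 gene at its bound. Over all tested genes the medians were 0.12 and -0.01. The comparisons share the knockout-labelled libraries, so their directions are not independent, and since these contrasts chose the members, nothing is read from the counts.

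The surroundings of the cluster were examined next. Of 7 other genes annotated inside the cluster, Hotair was analysed here. Hotair is a noncoding RNA from the strand opposite to the HOX genes, described in human fibroblasts as a partner of Polycomb complexes. It lies at chr15:102944062-102947730, between Hoxc12 and Hoxc11. It had 0, 0, 3.75 and 0 normalised reads in the Sox2-guide libraries (1 read), 46.8, 29.2, 21.9 and 19.4 in the knockout-labelled libraries (46 reads) and 0 in the WT-labelled libraries. It was at least 12.8-fold higher in the knockout-labelled than in the WT-labelled libraries, and 51.6-fold lower in the Sox2-guide than in the knockout-labelled libraries (8.81 to 2081). It passed the filter, a mean of at least 10 over all libraries, only through the knockout-labelled group, and it lies within the cluster, so these values are a description. Its exons and those of the Hoxc genes lie on opposite strands, and the sources used here do not say that counting used the strand.

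Of 42 genes annotated within 500 kb of either end, 25 were in the table and 16 were tested. In knockout-labelled against WT-labelled libraries 8 were called higher and 3 lower, in Sox2-guide against knockout-labelled libraries 4 higher and 6 lower, and in Sox2-guide against WT-labelled libraries 10 higher and 0 lower (limma adjusted p under 0.05). Over all tested genes 67.0%, 60.7% and 52.0% were called. The 16 include Pde1b and Npff, which passed the filter only through the knockout-labelled libraries, so nothing is read from the counts. Both are named for this alone. Pde1b averaged 5.69, 41.6 and 5.90 and Npff 7.59, 22.6 and 9.83 in the Sox2-guide, knockout-labelled and WT-labelled libraries. The median log2 change over these 16 was 0.99, -0.01 and 0.54 in the same order of comparisons, beside 0.12, -0.01 and 0.08 over all tested genes. By side, in knockout-labelled against WT-labelled libraries, 4 of 9 tested genes past Hoxc13 were called higher and 2 lower (median 1.01). Past Hoxc4 it was 4 of 7 higher and 1 lower (median 0.96), so the nearest genes named below do not stand for their side. In 5 of the 16, the call was not made between knockout-labelled and WT-labelled libraries, among them the nearest tested gene past Hoxc4. That gene, Smug1, a uracil-DNA glycosylase 116 kb away, had 177 ± 24.6, 147 ± 27.2 and 129 ± 22.7 normalised reads in the Sox2-guide, knockout-labelled and WT-labelled libraries (SD, n = 4). Its log2 change between knockout-labelled and WT-labelled libraries was 0.19 ± 0.17 (adjusted p = 0.35).

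Farther on that side, Cbx5, which encodes a heterochromatin protein, had 10936 ± 1574, 6507 ± 280 and 7831 ± 216 normalised reads in the Sox2-guide, knockout-labelled and WT-labelled libraries. It was higher in Sox2-guide than in knockout-labelled libraries (log2 change 0.74 ± 0.09, adjusted p = 4.1e-06). Its lower level in knockout-labelled than in WT-labelled libraries (-0.27 ± 0.09, adjusted p = 0.019) was no longer called with quantile scaling (adjusted p = 0.33) or without knockout-labelled replicate 1 (adjusted p = 0.053). Hnrnpa1, an RNA-binding protein gene, was called higher in Sox2-guide than in knockout-labelled libraries (0.79 ± 0.20, adjusted p = 0.0027) and not called in knockout-labelled against WT-labelled libraries (-0.02 ± 0.20, adjusted p = 0.94).

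Past Hoxc13, the nearest tested gene was Calcoco1, 199 kb away, which encodes a calcium-binding coiled-coil protein that acts as a nuclear receptor coactivator and in selective autophagy. It had 260 ± 43.5, 955 ± 38.9 and 103 ± 6.15 normalised reads in the Sox2-guide, knockout-labelled and WT-labelled libraries (SD, n = 4), and no group overlapped another. Its log2 change was 3.20 ± 0.12 in knockout-labelled against WT-labelled libraries (adjusted p = 1.2e-12), -1.89 ± 0.12 in Sox2-guide against knockout-labelled libraries (adjusted p = 1.3e-09) and 1.31 ± 0.12 in Sox2-guide against WT-labelled libraries (adjusted p = 1.9e-07). The next gene, Atp5g2, a subunit of mitochondrial ATP synthase, was not called in knockout-labelled against WT-labelled libraries (0.33 ± 0.25, adjusted p = 0.27). Rpl39-ps, a pseudogene whose reads could come from its parent gene, was lower there (-1.16 ± 0.42, adjusted p = 0.022), a call that ended with no filter on low values, without WT-labelled replicate 2 or 4 and without knockout-labelled replicate 4 (adjusted p = 0.051 to 0.081). The noncoding gene 5730585A16Rik, 21.4 kb past Hoxc4 and chosen after its values were seen, had 0 reads in the Sox2-guide, 24 in the knockout-labelled and 0 in the WT-labelled libraries, too few to be tested.

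**Figure D3:**
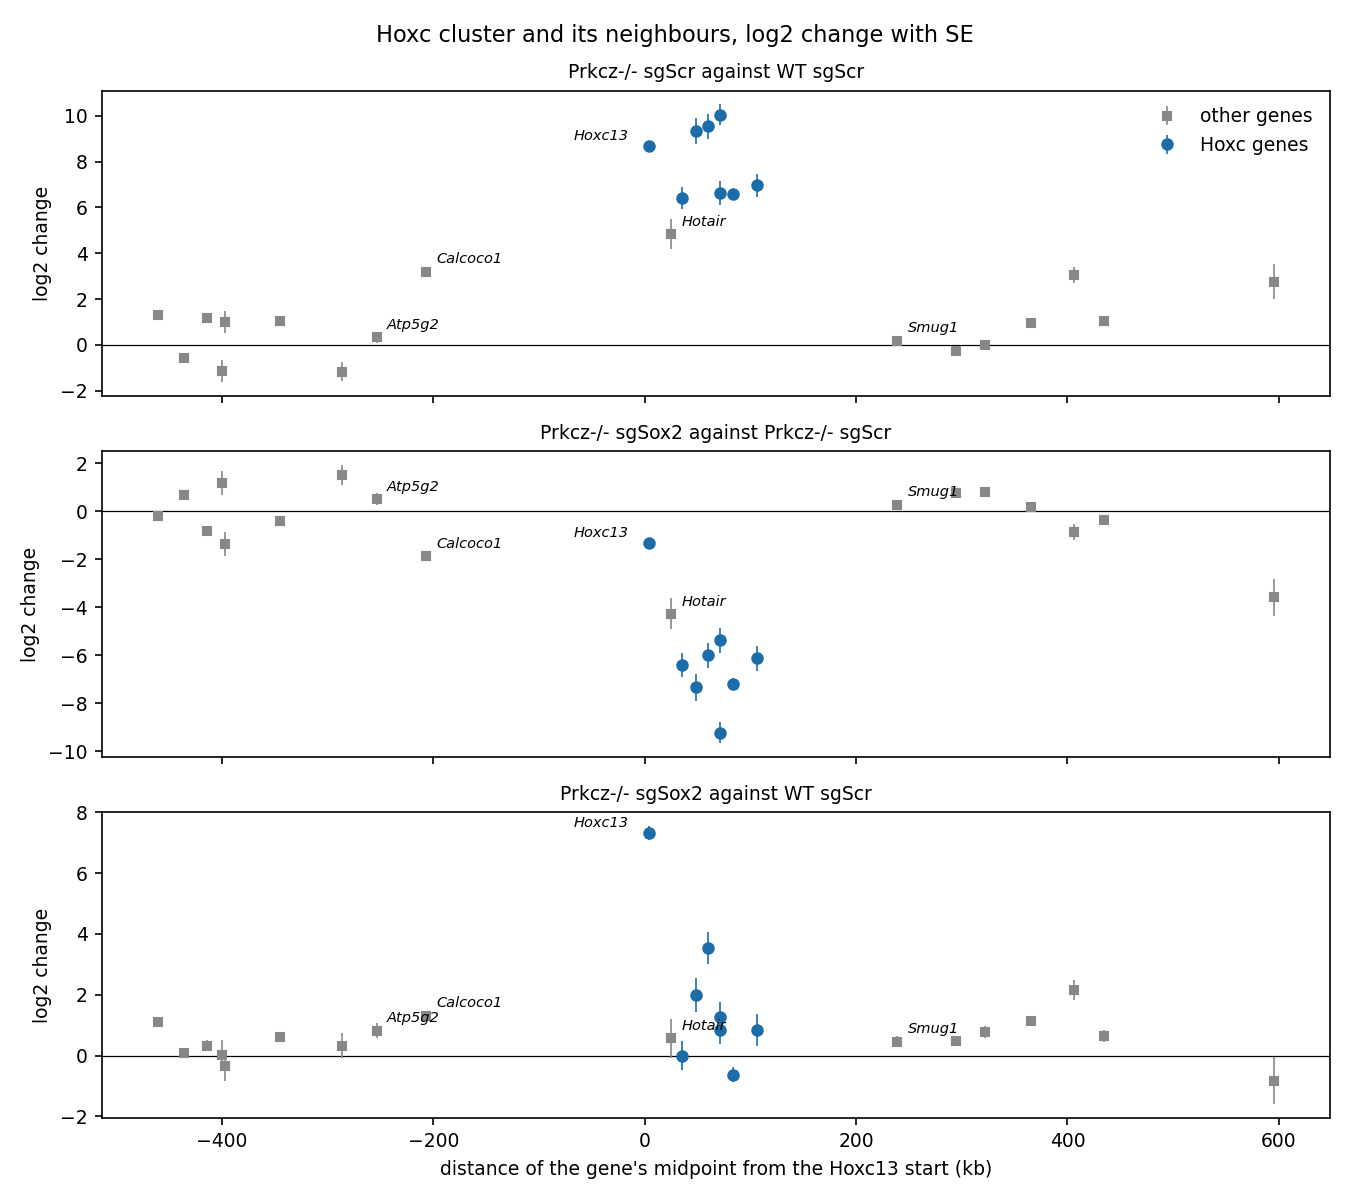
Log2 change with SE (y axis) of tested Hoxc genes (circles) and tested other genes inside the cluster or within 500 kb (squares) against the distance of each gene's midpoint from the Hoxc13 start in kb (x axis), in 3 comparisons, one panel each. Changes of genes at 0 reads in a group depend on the added 1 and are no bounds; in the top panel the nearest tested gene past Hoxc13, Calcoco1, lies at 3.20 and the nearest past Hoxc4, Smug1, at 0.19, where the Hoxc genes lie at 6.40 to 10.05, and Hoxc13 is the Hoxc gene nearest 0 in the middle panel.

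Sequence around Hoxc4 was the only promoter window of a member that could be matched in the RefSeq table. It is shown because Hoxc4, at 110 to 142 normalised reads in knockout-labelled libraries, was at or within 1 read of 0 in all others. The window holds a RefSeq start that lies inside the span annotated for Hoxc4 (chr15:103018934-103036852), not at the 5' end of that span. Which start was used in these cells was not tested. Capitals mark 2 motifs found by a search for CCAAT and the SOX core ACAAT on both strands, each here on the minus strand (GRCm38.p6, plus strand, chr15:103034145-103034444, 250 bases before to 50 after the start).
Hoxc4 promoter: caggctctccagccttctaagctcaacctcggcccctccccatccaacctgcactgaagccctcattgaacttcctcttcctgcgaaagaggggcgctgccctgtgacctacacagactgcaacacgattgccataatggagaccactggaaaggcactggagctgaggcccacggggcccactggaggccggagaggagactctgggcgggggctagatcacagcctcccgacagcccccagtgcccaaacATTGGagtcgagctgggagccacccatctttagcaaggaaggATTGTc
CCAAT occurred in 37.4% and ACAAT in 31.0% of 32851 RefSeq promoter windows of this length. The window held no ACAAAG (18.7% of windows), no TGATNNAT, a joint PBX and HOX motif (8.85%), and no TATAAA (13.6%). Its GC content was 60.3% with 9 CpG, beside medians of 52.7% and 7. Both marked motifs lie after the start. A match is a description of letters and does not show a site of binding.

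Between Hoxc10 and Hoxc9 lies the gene of miR-196a, a microRNA for which Hoxc8 is a known target in mice. These libraries do not measure it. Its sequence is given because, of the 9 members, Hoxc8 was the only one whose 3' UTR matched its seed. A part of the microRNA in the Hoxc8 levels was not tested. Capitals mark the seed in the microRNA (RefSeq, chr15:102973365-102973386, GRCm38.p6, plus strand) and its match in the 2 sites of Hoxc8.
miR-196a-5p: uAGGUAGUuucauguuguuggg
Hoxc8 site 1: cactcacaactctaACTACCTg
Hoxc8 site 2: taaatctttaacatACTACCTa
A match of these 7 bases occurred in the 3' UTR of 6.16% of 20831 genes.

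The other HOX clusters are given next as the rest of the family. Hoxc genes made up 3.32 ± 0.295% of all HOX reads in the Sox2-guide libraries, 49.7 ± 0.873% in the knockout-labelled libraries and 0.457 ± 0.151% in the WT-labelled libraries (SD, n = 4). The sum over Hoxa genes was 2322 ± 194, 2750.5 ± 220 and 2577 ± 186 normalised reads in the same order of groups, and that over Hoxb genes 3681 ± 319, 3598 ± 83.7 and 2697 ± 185. Over Hoxd genes it was 253 ± 40.7, 281 ± 14.9 and 725 ± 41.7.

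In knockout-labelled against WT-labelled libraries, 4 of 10 tested Hoxa genes were called higher and 2 lower, 5 of 9 Hoxb genes higher and 0 lower, and 2 of 4 Hoxd genes higher and 1 lower (limma adjusted p under 0.05). The Hoxb count fell by 2, to 3, with quantile scaling, with DESeq2, without WT-labelled replicate 1 and without knockout-labelled replicate 4. In Sox2-guide against knockout-labelled libraries the counts were 3 higher and 3 lower for Hoxa, 3 and 2 for Hoxb, and 2 and 2 for Hoxd. In Sox2-guide against WT-labelled libraries they were 1 and 1 for Hoxa, 6 and 2 for Hoxb, and 0 and 1 for Hoxd. The 2 Hoxa calls became 4 without WT-labelled replicate 4 or Sox2-guide replicate 1 or 2, and the 1 Hoxd call became 2 without Sox2-guide replicate 1 or 3. Counts and medians include Hoxa2, Hoxa13 and Hoxd9, which passed the filter only through the group where each was highest. The median log2 changes were 0.00, -0.11 and 0.05 for Hoxa, 0.28, 0.17 and 0.55 for Hoxb, and 1.23, -0.71 and 0.22 for Hoxd, beside 0.12, -0.01 and 0.08 over all tested genes, of which 67.0%, 60.7% and 52.0% were called.

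Named genes of the other clusters went several ways. Hoxa5, which acts in lung and gut development, had 371 ± 65.8, 1104.5 ± 90.8 and 399.9 ± 38.1 normalised reads in the Sox2-guide, knockout-labelled and WT-labelled libraries. It was higher in knockout-labelled than in WT-labelled libraries (log2 change 1.46 ± 0.12, adjusted p = 1.6e-08) and lower in Sox2-guide than in knockout-labelled libraries (-1.58 ± 0.12, adjusted p = 9.5e-09). Hoxd4 had the same directions in these comparisons, with a log2 change of 2.69 ± 0.29 in knockout-labelled against WT-labelled libraries (adjusted p = 4.0e-07). Hoxa2 and Hoxd9 passed the filter on low values only through the knockout-labelled libraries and are described without a p. Hoxa2 averaged 5.16 ± 5.18, 55.6 ± 18.3 and 4.03 ± 1.31 normalised reads in the Sox2-guide, knockout-labelled and WT-labelled libraries (SD, n = 4). Hoxd9 had 0 reads in the Sox2-guide, 51 in the knockout-labelled and 0 in the WT-labelled libraries, a knockout-labelled level at least 14.2 times that of the WT-labelled libraries. Hoxa11, whose level is uncertain because a gene on the other strand overlaps it, went the other way: it was lower in knockout-labelled than in WT-labelled libraries (-2.21 ± 0.13, adjusted p = 2.3e-10) and higher in Sox2-guide than in knockout-labelled libraries (1.53 ± 0.13, adjusted p = 3.5e-08). Hoxb7 was higher in knockout-labelled than in WT-labelled libraries (1.40 ± 0.11, adjusted p = 6.5e-09), and higher again in Sox2-guide than in knockout-labelled libraries (0.57 ± 0.11, adjusted p = 2.2e-04).

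The genes of paralog group 13, to which Hoxc13 belongs, differed among clusters in which group was highest. Hoxc13 averaged 160.0 ± 19.0 normalised reads in the Sox2-guide libraries, 405 ± 48.3 in the knockout-labelled libraries and 0 in the WT-labelled libraries. Hoxd13, a gene of hindgut and digits, averaged 61.1 ± 12.8 (102 reads), 1.02 ± 2.03 (2 reads) and 583 ± 53.4 (713 reads) in the same order of groups. Hoxb13, a gene of the tail bud and prostate, averaged 155 ± 26.7, 29.5 ± 19.8 and 11.4 ± 5.49. Hoxa13, also of hindgut and digits, averaged 26.2 ± 8.56, 2.63 ± 3.20 and 4.70 ± 3.92 (SD, n = 4 for each). Hoxd13 was lower in knockout-labelled than in WT-labelled libraries, 426-fold (118 to 3528, adjusted p = 2.9e-11), and higher in Sox2-guide than in knockout-labelled libraries (5.35 ± 0.43 on the log2 scale, adjusted p = 1.7e-08). Hoxb13 was higher in Sox2-guide than in knockout-labelled libraries by a log2 change of 2.52 ± 0.43 (adjusted p = 9.4e-05). Hoxa13 passed the filter on low values only through the Sox2-guide libraries and is given without a p. Its log2 change in the same comparison was 3.39 ± 0.78. Of the 4 group 13 genes, Hoxc13 was thus the one highest in the knockout-labelled libraries and the one at 0 in the WT-labelled libraries.

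**Figure D4:**
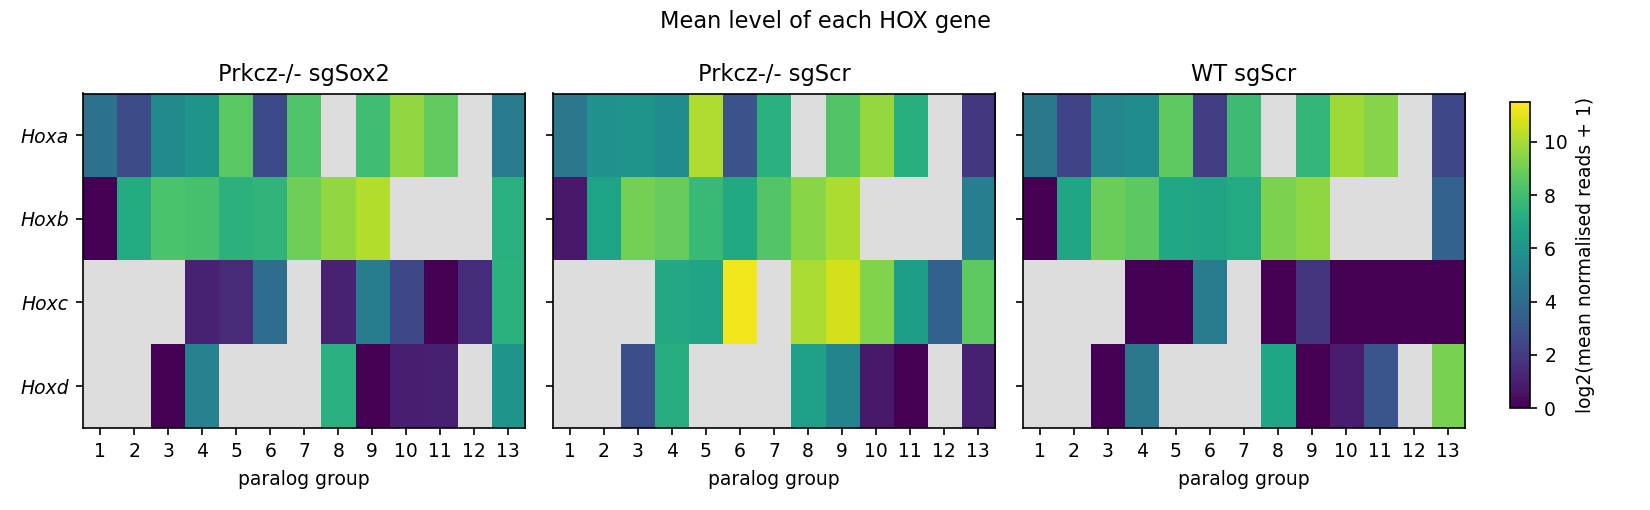
Mean level of each HOX gene in the Sox2-guide (Prkcz-/- sgSox2), knockout-labelled (Prkcz-/- sgScr) and WT-labelled (WT sgScr) libraries, with clusters as rows, paralog groups as columns and colour giving log2(mean normalised reads + 1). Grey cells hold no gene or one not analysed here. The Hoxc row is bright in the middle panel, is dark in the right panel but for Hoxc6 and a little Hoxc9, and in the left panel is bright at group 13.

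HOX proteins bind DNA with cofactors of the TALE class (PBX, MEIS and PKNOX proteins). A list of 11 TALE genes, which also held the TGIF repressors, was fitted, all tested. In knockout-labelled against WT-labelled libraries 4 were called higher and 3 lower, in Sox2-guide against knockout-labelled libraries 5 higher and 2 lower, and in Sox2-guide against WT-labelled libraries 3 higher and 2 lower, beside 67.0%, 60.7% and 52.0% of all tested genes called. The medians of the list, 0.10, -0.01 and -0.06 on the log2 scale, lie beside 0.12, -0.01 and 0.08 over all tested genes. Meis2, which encodes a MEIS partner of HOX proteins, had 2722.5 ± 116, 1206 ± 63.7 and 2833 ± 50.9 normalised reads in the Sox2-guide, knockout-labelled and WT-labelled libraries. It was lower in knockout-labelled than in WT-labelled libraries (log2 change -1.23 ± 0.07, adjusted p = 1.3e-10) and higher in Sox2-guide than in knockout-labelled libraries (1.17 ± 0.07, adjusted p = 3.5e-10). Its values overlapped between Sox2-guide and WT-labelled libraries. Meis3 was higher in knockout-labelled than in WT-labelled libraries (2.03 ± 0.36, adjusted p = 9.2e-05), and Tgif1, a TALE repressor, lower (-1.78 ± 0.22, adjusted p = 2.6e-06). Pknox2 was higher in Sox2-guide than in knockout-labelled libraries (0.86 ± 0.20, adjusted p = 0.0014).

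Among 20 genes known to act upstream of HOX clusters (Cdx factors, Gdf11 and the retinoic acid pathway), 15 were in the table and 11 were tested. Of these, 8 were called higher and 2 lower in knockout-labelled against WT-labelled libraries, 1 higher and 6 lower in Sox2-guide against knockout-labelled libraries, and 5 higher and 3 lower in Sox2-guide against WT-labelled libraries, beside 67.0%, 60.7% and 52.0% of all tested genes. The medians were 1.52, -0.38 and 0.76 on the log2 scale, beside 0.12, -0.01 and 0.08 over all tested genes. The 11 include Crabp2, Cyp26b1 and Aldh1a3, which passed the filter only through the knockout-labelled libraries, so nothing is read from the counts and medians. Cyp26b1 averaged 3.65, 30.6 and 1.71 and Aldh1a3 6.55, 40.7 and 0.812 in the Sox2-guide, knockout-labelled and WT-labelled libraries. Crabp2, which carries retinoic acid to its nuclear receptors, had 2.67 ± 1.96 normalised reads in the Sox2-guide libraries (4 reads), 145 ± 17.8 in the knockout-labelled libraries (214 reads) and 0.903 ± 1.81 in the WT-labelled libraries (1 read). It was 179-fold higher in knockout-labelled than in WT-labelled libraries (31.8 to 7099) and 60.0-fold lower in Sox2-guide than in knockout-labelled libraries (23.1 to 222), and is given without a p since it passed the filter only through the knockout-labelled libraries. Crabp1, its relative, had 1139.5 ± 114, 3353 ± 300 and 5864 ± 386 normalised reads in the Sox2-guide, knockout-labelled and WT-labelled libraries. It was lower in knockout-labelled than in WT-labelled libraries (-0.81 ± 0.09, adjusted p = 5.4e-07) and lower again in Sox2-guide than in knockout-labelled libraries (-1.56 ± 0.09, adjusted p = 2.5e-10). Rarg, a retinoic acid receptor, was higher in knockout-labelled than in WT-labelled libraries (1.52 ± 0.08, adjusted p = 4.4e-11). Rarb, a receptor gene that retinoic acid itself induces, had 3.22 ± 2.78, 76.5 ± 30.6 and 24.9 ± 7.59 normalised reads in the same order of groups, and was lower in Sox2-guide than in WT-labelled libraries (-2.91 ± 0.52, adjusted p = 1.8e-04).

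Of 28 Polycomb genes, which encode repressors of HOX clusters, 12 were called higher and 7 lower in knockout-labelled against WT-labelled libraries, 9 higher and 8 lower in Sox2-guide against knockout-labelled libraries, and 7 higher and 5 lower in Sox2-guide against WT-labelled libraries. Of all tested genes 67.0%, 60.7% and 52.0% were called in these comparisons. The medians of the list were -0.05, 0.10 and 0.18 on the log2 scale, beside 0.12, -0.01 and 0.08 over all tested genes. Cbx7, a reader of trimethylated H3K27, had 95.3 ± 33.4 normalised reads in the Sox2-guide libraries, 106 ± 23.1 in the knockout-labelled libraries and 0 in the WT-labelled libraries, and was at least 44.3-fold higher in knockout-labelled than in WT-labelled libraries (adjusted p = 2.3e-11). It overlaps a gene on the other strand, so its level is uncertain. Rbbp7, a histone-binding subunit, was lower in knockout-labelled than in WT-labelled libraries (-1.25 ± 0.13, adjusted p = 4.3e-07) and higher in Sox2-guide than in knockout-labelled libraries (1.05 ± 0.13, adjusted p = 4.3e-06). Pcgf2, a subunit of the first Polycomb complex, had the opposite directions (1.54 ± 0.10, adjusted p = 1.0e-09, and -0.99 ± 0.10, adjusted p = 3.1e-07). Jarid2, an accessory subunit of the second complex, was lower in Sox2-guide than in knockout-labelled libraries (-1.64 ± 0.18, adjusted p = 6.4e-07).

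Of 13 Trithorax and H3K27 demethylase genes, whose products oppose Polycomb, 2 were called higher and 5 lower in knockout-labelled against WT-labelled libraries, 5 higher and 4 lower in Sox2-guide against knockout-labelled libraries, and 1 higher and 3 lower in Sox2-guide against WT-labelled libraries, beside 67.0%, 60.7% and 52.0% of all tested genes called. The list medians of 0.04, -0.03 and -0.02 on the log2 scale compare with 0.12, -0.01 and 0.08 over all tested genes. Kdm6b, an H3K27 demethylase, had 64.5 ± 11.6, 164 ± 9.80 and 60.5 ± 12.3 normalised reads in the Sox2-guide, knockout-labelled and WT-labelled libraries. It was higher in knockout-labelled than in WT-labelled libraries (1.44 ± 0.20, adjusted p = 8.3e-06) and lower in Sox2-guide than in knockout-labelled libraries (-1.34 ± 0.20, adjusted p = 2.3e-05). Dpy30 and Wdr5, core subunits of H3K4 methyltransferases, were lower in knockout-labelled than in WT-labelled libraries, by log2 changes of -2.38 ± 0.14 and -1.39 ± 0.16 (adjusted p = 2.7e-10 and 7.2e-07). Both were higher in Sox2-guide than in knockout-labelled libraries (1.59 ± 0.14 and 1.37 ± 0.16, adjusted p = 6.1e-08 and 1.2e-06). Kmt2a, which keeps HOX genes active, was lower in Sox2-guide than in knockout-labelled libraries (-0.71 ± 0.11, adjusted p = 4.9e-05).

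Profiles over the 12 libraries were then set against that of the cluster, taken as the median of the centred log2(value + 1) of the 8 tested members. Among members, Hoxc4 lay nearest to it, with a root mean square difference of 0.38 on the log2 scale, and Hoxc13 farthest, at 2.67. Outside the cluster 9715 genes averaged 50 normalised reads or more (predicted genes, Rik names and pseudogenes left out), and of these the 6 most alike were Kif26b (0.53), Itga8 (0.56), Col14a1 (0.67), Col12a1 (0.69), Tnn (0.70) and Sorbs2 (0.70). Kif26b, a kinesin of kidney mesenchyme, had 10.7 ± 4.85, 1409 ± 105 and 5.60 ± 2.70 normalised reads in the Sox2-guide, knockout-labelled and WT-labelled libraries. Itga8, the integrin alpha 8 chain, had 0.617 ± 1.23 (1 read), 223 ± 28.2 (329 reads) and 0. Tnn, tenascin N of the matrix, had 0, 173 ± 25.5 and 0, and Col12a1, a fibril-associated collagen, 49.0 ± 17.1, 2038 ± 236 and 22.6 ± 10.6 (SD, n = 4 for each). These genes were picked for likeness over 12 libraries that fall into 3 groups, so the likeness is mainly of group levels.

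Markers of other cell types moved with the groups. Smooth muscle genes, of which all 7 listed were analysed, summed to 1147 to 1828, 26409 to 29119.9 and 2201 to 2318 normalised reads in the Sox2-guide, knockout-labelled and WT-labelled libraries, highest where the Hoxc genes were. Most of that was Acta2, smooth muscle actin (1340.0, 25553 and 1609), which fibroblasts can also express. Of the others, Tagln averaged 85.4, 1966 and 592, Lmod1 1.11, 654 and 8.03, Cnn1 6.76, 52.3 and 46.6, and Des 0, 3.13 and 0.812. Myh11 and Myocd, the defining genes of smooth muscle, were at 0 in the Sox2-guide libraries, averaged 6.17 and 13.3 in the knockout-labelled libraries and were at 0 in the WT-labelled libraries. Mesothelial markers, all 5 listed, summed to 296 to 498, 10.2 to 16.2 and 1136 to 1296 in the same order, lowest where the Hoxc genes were highest. Most of the Sox2-guide and WT-labelled sums was Msln, mesothelin (358, 0.782 and 1111), while Wt1 (8 reads) and Upk3b (2 reads) were read in the knockout-labelled libraries alone. Of the 6 skeletal muscle and myogenic progenitor markers 2 were analysed, and their sums of 526 to 761, 1379 to 1821 and 23.0 to 45.5 came almost wholly from Pax3. Epithelial markers (8 of 9 listed) summed to 13.4 to 28.8, 0 to 15.6 and 125 to 174, and Krt8 and Vil1 were at 0 in the Sox2-guide and knockout-labelled libraries. Immune markers (6 of 9) summed to 37.5 to 53.8, 40.7 to 74.4 and 23.0 to 39.0, with Ptprc, the pan-leukocyte CD45 gene, at 0 in the Sox2-guide and knockout-labelled libraries. Both Csf1r (means of 7.04, 34.3 and 3.27) and Lyz2 (1.55, 12.3 and 0), macrophage genes, were highest in the knockout-labelled libraries. Cd68, another macrophage gene, was lowest there (35.9, 9.54 and 25.4), and Adgre1 and Itgam had 0 reads in the knockout-labelled libraries. Endothelial markers (5 of 6) summed to 90.4 to 116, 20.3 to 26.2 and 23.9 to 42.7, with Cdh5 at 0 in the Sox2-guide and knockout-labelled libraries. Kdr, a VEGF receptor gene, made up most of the Sox2-guide sum, with means of 96.9, 14.8 and 11.6. Enteric glia and neuron markers (8 of 8) summed to 170.4 to 223, 292 to 408 and 182 to 299. Their part in the Hoxc levels was not tested.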

How the data were processed

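The authors deposited a single table of signal, gene by library, scaled so that each library totals 10000000. Mapping used GRCm38, per the submitters' processing notes. Not given in the sources used here are the aligner, the counter, and whether strand or the optional unique molecular identifiers were used. Per the labels' protocols, 200 ng of RNA entered the forward QuantSeq kit and single ends of 75 nt were read. Low values were multiples of 1 step, and dividing by it gave whole reads (tolerance 0.01 read) for 100% of values, 2.67 to 5.20 M reads per library. Column names gave each column's sample, and 23002 of 23106 identifiers had a GENCODE vM21 symbol.

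Genes with a mean of at least 10 were tested (12676). On log2 values after adding 1, limma 3.58.1 (trend, R 4.3.3) fitted the 3 group means over all 12 libraries, with p-values adjusted over all genes. The closing section gives the effect of edgeR 4.0.16 (quasi-likelihood, TMM) and DESeq2 1.42.0 on the recovered reads and of the other alternatives. The limma step was tested on simulated data. Ratios of reads over a group carry exact 95% intervals, and a group at 0 was set to 3 reads.

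The members, lists and comparisons were chosen with earlier results of these data known. Named genes were the 9 members, Prkcz and Sox2, genes analysed inside the cluster, the nearest 3 tested genes on each side, up to 4 called genes of a list per comparison (in each direction the 2 with the lowest adjusted p), and the 6 most alike profiles among genes with a mean of at least 50. Other names are said to be exceptions. All values of paralog group 13 were given. Some items under this rule are not reported here.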

Additional observations from a re-analysis of the deposited data

Results flagged for a closer look

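Of 20 genes in 3 groups of 4 libraries looked at for a library far from the rest of its group, 1 stood out. Prkcz was 52.5 normalised reads in Sox2-guide replicate 3, against 27.2 to 30.8 in the other 3 libraries of that group. The values rest on 14 reads in that library and 11 to 16 in the others, and the library was the shallowest of the group, at 2.67 M reads. Chance marks about 1 group in 20. Named genes outside these 20 were not screened, and some of them also have a library far from its group. Pknox2 had 310 normalised reads in Sox2-guide replicate 1, against 210 to 214 in the rest of that group. Hoxb13 had 58.9 in knockout-labelled replicate 1, against 17.5 to 22.7 in the rest of that group.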

How the results depend on the processing

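The counts of genes called kept within 1.5 times of 8493 (knockout-labelled against WT-labelled), 7689 (Sox2-guide against knockout-labelled) and 6596 (Sox2-guide against WT-labelled) under every alternative run: an added 5 in place of 1, no filter, a filter at 50, quantile scaling, edgeR, DESeq2, only the 2 groups compared, a replicate block and leaving out each library. Leaving out a library gave 8066 to 8982, 7103 to 7816 and 5991 to 6722 genes, and 8, 8 and 3 to 5 Hoxc genes. With a filter at 50, 5 Hoxc genes were called in the first and 5 in the second comparison, since fewer were tested, and 6 and 3 upstream regulators. Hoxb calls in the first comparison were 3 with quantile scaling, 3 with DESeq2 and 3 to 5 with a library left out. Hoxd calls were 5 with no filter in the first comparison, and in the third 2 with no filter, 2 with edgeR and 1 to 2 with a library left out, where Hoxa calls were 2 to 4. No called log2 change of a Hoxc gene, or of a named gene of the lists and flanks, turned sign under these alternatives. Changes of the lists and flanks that were not called were not checked for this. Of 183 log2 changes of Hoxc genes under settings other than leaving out a library, 40 moved by more than the spread between replicates. The median over all genes in the first comparison was -0.05 with quantile scaling, against 0.12 without. DESeq2 split the calls of the third into 2958 higher and 3230 lower (47.8% higher, against 57.8%).

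Deviations of same-numbered replicates from their group means correlated at -0.04 to 0.13, and a library correlated best with its own number in 7 of 24 cases, so the numbers were not taken to pair the libraries. With the number as a block, 8508, 7693 and 6627 genes and 8, 8 and 4 Hoxc genes were called. Depth limits the Sox2-guide and WT-labelled levels of most Hoxc genes, which rest on 0 to 46 reads a group except for Hoxc13.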
